A study of Mus musculus with 8 samples.

Results

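Wnt pathway genes were examined in RNA-seq data of mSSC-YFP, a murine spleen stromal cell line that expresses YFP. The members were the rows of the authors' table whose gene symbol names a Wnt ligand or a protein of its secretion, reception, inhibition or signal transduction. The rule names 79 mouse genes, and 42 of them had a row among the 12589 rows of the table. The share of all annotated genes that had a row was not computed. Whether 42 of 79 is high or low is therefore not known, and the same holds for the counts by role below. The design held 8 samples of this 1 line, 4 treated with the vehicle DMSO and 4 with BMS493, an inhibitor of retinoic acid (RA) receptor signaling, each for 48 h in medium with fetal bovine serum and antibiotics. What was analysed is the mean log2 normalized expression that the authors give per gene over all samples, called the level here. The columns of the authors' own comparison of BMS493 with DMSO were not used, and nothing was analysed at the level of a single culture. The effect of BMS493 on these genes, the spread between cultures and the depth of each library are therefore not reported, and a level lies between the levels of the treatment groups. No value below carries an error, no difference between genes was tested, and the gene levels are a description of this line.

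In the Wnt pathway, a secreted lipid-modified ligand binds a frizzled receptor together with a co-receptor. In the canonical branch this stops a destruction complex of Axin, Apc and Gsk3 from marking β-catenin for degradation, and β-catenin then joins Tcf/Lef factors at target genes. Other branches act on cell polarity and calcium. In lymphoid organs and bone marrow, stromal cells are a known source of Wnt ligands and of their inhibitors.

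The line was first checked against marker genes. Of 10 fibroblastic markers 8 had a row, with levels between 5.24 for Pdgfra and 13.29 for Col1a1. Lum and Fap of this list had no row. Of 12 lymphoid stromal markers only 5 had a row, namely Cxcl12 at 11.11, Vcam1 at 8.03, Ltbr at 7.23, Pdpn at 7.02 and Tlx1 at 4.82. Most of that list was thus missing, with no row for Cxcl13, Ccl19, Ccl21a, Icam1, Madcam1, Tnfsf11 and Bst1. No row was found for 6 B cell markers, and of 6 markers each the T cell list had 1 row (Lck, 0.12), the macrophage list 1 (Cd68, 1.36) and the endothelial list 2 (Kdr, 2.83, and Pecam1, 0.47). The epithelial list had 4 of 6, of which Krt8, Krt18 and Krt14 lay between 0.31 and 1.55 and Cdh1, which encodes E-cadherin, at 8.03. The part of other cells in the levels was not tested.

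A long transcript yields more reads than a short one at the same abundance, so levels were compared between genes per kilobase. For this the log2 length in kilobases of the longest annotated transcript was subtracted from the level. The median per-kilobase level of the 42 Wnt pathway genes was 3.11, beside 3.28 over the 12368 genes with a known length. Of the 42 genes, 17 (40.5%) lay above the median of all genes, 6 (14.3%) above the upper quartile of 4.57 and 15 (35.7%) below the lower quartile of 1.84. As listed, with no correction for length, 22 of the 42 (52.4%) lay above the median of 4.99 and 12 (28.6%) above the upper quartile. The members ranged from Ctnnb1 at 7.67 per kilobase, percentile 98.1 of all genes, to Dkk2 at -1.38, percentile 2.08. On the linear scale (2 raised to the level) the 42 genes summed to 3428 of a table total of 989369, or 0.346%.

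**Figure D1:**
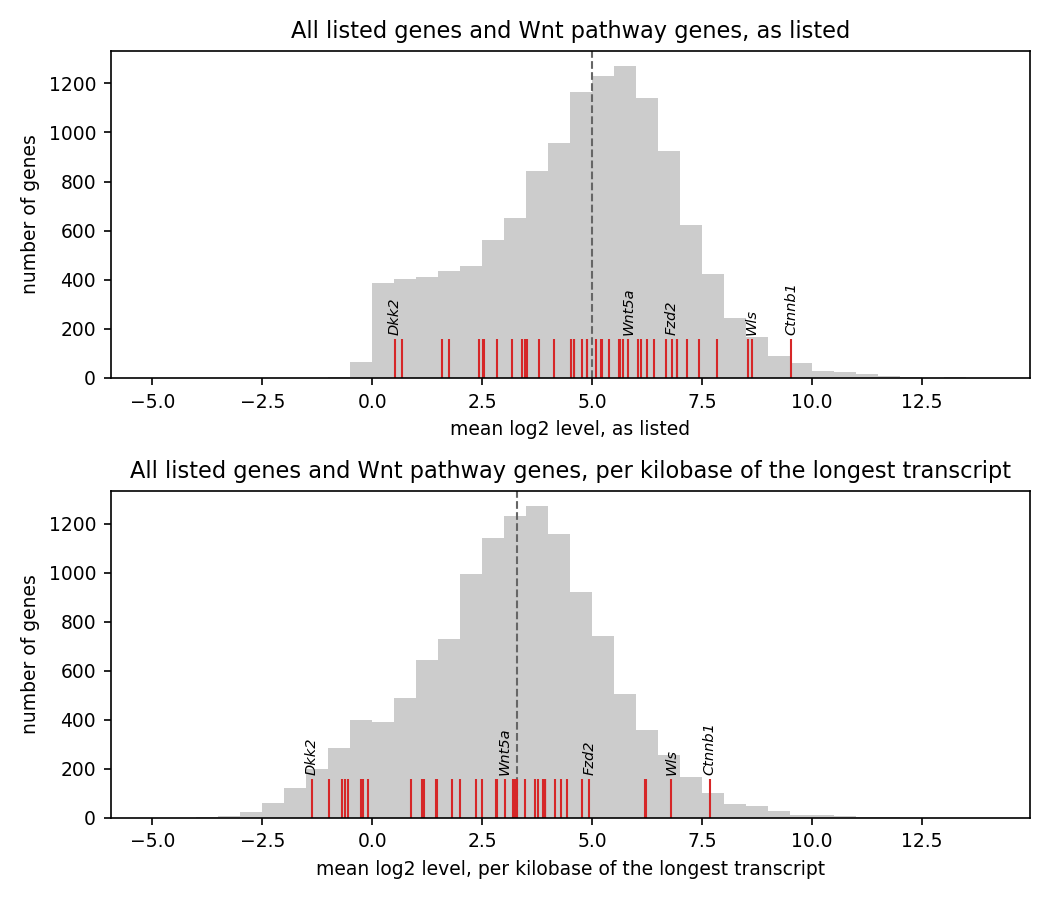
Number of genes (y axis) by mean log2 level (x axis) as listed (top, 12589 genes) and per kilobase of the longest transcript (bottom, 12368 genes), with all samples pooled; red ticks are the 42 Wnt pathway genes and the dashed line is the median of all genes. The red ticks spread from Dkk2 at the low end to Ctnnb1 at the high end on each scale.

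The letters around the start sites of the genes with the highest and lowest levels, and of the ligands for which a window was found, are shown first. RefSeq promoter windows (build GRCm38.p6, 250 bases before to 50 bases after a start) were found for 23 of the 42 genes, 29 windows in all. The first annotated window of Ctnnb1 and those of Wls, Wnt9a, Wnt10b and Dkk2 are printed 5′ to 3′ on the gene's strand. Capitals mark a GC box (GGGCGG on either strand) or a TATA box (TATAAA on either strand).
Ctnnb1, chr9:120933150-120933449, plus strand: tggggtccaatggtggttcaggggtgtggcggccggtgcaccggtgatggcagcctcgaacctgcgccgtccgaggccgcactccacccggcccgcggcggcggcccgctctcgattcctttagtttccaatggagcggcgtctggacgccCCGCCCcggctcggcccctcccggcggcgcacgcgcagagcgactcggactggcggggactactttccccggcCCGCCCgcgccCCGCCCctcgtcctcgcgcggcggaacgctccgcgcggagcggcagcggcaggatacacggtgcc
Wls, chr3:159839400-159839699, plus strand: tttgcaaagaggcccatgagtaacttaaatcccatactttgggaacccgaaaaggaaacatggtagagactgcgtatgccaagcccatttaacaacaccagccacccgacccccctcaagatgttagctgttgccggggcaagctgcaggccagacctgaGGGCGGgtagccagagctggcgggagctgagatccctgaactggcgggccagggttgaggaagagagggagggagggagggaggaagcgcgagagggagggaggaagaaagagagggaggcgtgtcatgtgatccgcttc
Wnt9a, chr11:59306680-59306979, plus strand: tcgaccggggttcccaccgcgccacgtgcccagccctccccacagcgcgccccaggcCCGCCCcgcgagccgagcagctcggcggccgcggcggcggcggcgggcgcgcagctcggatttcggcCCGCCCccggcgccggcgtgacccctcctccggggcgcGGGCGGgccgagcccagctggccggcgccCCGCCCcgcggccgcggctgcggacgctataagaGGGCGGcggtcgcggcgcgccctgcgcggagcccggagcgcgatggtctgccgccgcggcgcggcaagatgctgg
Wnt10b, chr15:98778101-98778400, minus strand: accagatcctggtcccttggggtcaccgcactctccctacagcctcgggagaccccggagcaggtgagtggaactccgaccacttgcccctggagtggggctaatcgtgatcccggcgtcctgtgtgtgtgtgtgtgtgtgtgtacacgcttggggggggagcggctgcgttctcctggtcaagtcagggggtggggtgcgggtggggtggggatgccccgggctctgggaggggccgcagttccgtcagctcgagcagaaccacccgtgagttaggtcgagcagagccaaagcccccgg
Dkk2, chr3:132085042-132085341, plus strand: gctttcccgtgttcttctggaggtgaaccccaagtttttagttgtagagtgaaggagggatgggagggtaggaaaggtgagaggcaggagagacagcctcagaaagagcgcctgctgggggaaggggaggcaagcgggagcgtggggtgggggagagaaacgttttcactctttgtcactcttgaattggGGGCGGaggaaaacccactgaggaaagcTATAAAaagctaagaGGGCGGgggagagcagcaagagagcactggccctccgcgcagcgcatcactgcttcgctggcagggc

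These windows differed widely in base composition. The Ctnnb1 window had 46 CpG dinucleotides and a GC content of 75.3%, and the Wnt9a window 58 and 83.3%. The Wls window, of the gene with the second highest per-kilobase level, had only 11 CpG and 58.0% GC, about the same as the Dkk2 window with 11 and 57.7%. Wnt10b lay between, with 18 CpG and 66.3% GC. Over the 29 windows the median was 21 CpG, the same as the 21 over the 11414 windows of all listed genes. GC boxes were found in 21 of the 29 windows (72.4%), beside 63.6% of all windows, with 3 in the printed Ctnnb1 window, 5 in Wnt9a and none in Wnt10b. In Dkk2 the TATA letters began at position -32 from the start, between GC boxes at -60 and -17. The Tcf/Lef core letters CTTTGAT were in 0 of the 29 windows (2.40% of all windows) and CTTTGAA in 1, that of Gsk3a (3.36% of all). The core site AGGTCA of nuclear receptors, the class to which RA receptors belong, was in 1 window, that of Tcf7 (1372 of all 11414). A match is only a match of letters, and windows of the other 19 genes were not analysed here.

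Of the Wnt ligands, 4 of 19 genes had a row, and none of these lay above the median of all genes per kilobase of the longest transcript. Wnt5a, a ligand best known for signaling that does not run through β-catenin, was listed at 5.82, or 3.01 per kilobase, at percentile 44.6 of all genes, and reached percentile 66.7 as listed and 71.3 with coding length. With all exons it was at 2.85, level with the median of all genes. Wnt9a followed at 2.85 per kilobase and Wnt10b, a ligand of the canonical branch, at 2.35. Wnt10a was far lower, listed at 0.68 and at -0.62 per kilobase. Of the summed per-kilobase level of these 4 genes on the linear scale, Wnt5a made up 38.4%, Wnt9a 34.2%, Wnt10b 24.3% and Wnt10a 3.09%. The order of the 4 was the same with every length used, but the lead of Wnt5a was not. Its transcript of 7010 bases has a coding part of 1140 bases, and per kilobase of coding length its share was 58.7%, whereas per kilobase of all exons Wnt5a and Wnt9a were nearly level at 37.8% and 37.5%. No row was found for Wnt1, Wnt2, Wnt2b, Wnt3, Wnt3a, Wnt4, Wnt5b, Wnt6, Wnt7a, Wnt7b, Wnt8a, Wnt8b, Wnt9b, Wnt11 and Wnt16, and they were not analysed here.

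On the chromosomes, 3 of the 4 listed ligand genes lay within 100000 bases of a ligand gene with no row (GENCODE M21, GRCm38). Genes outside the rule that lie in between were not looked for. As many as 15 of the 19 ligand genes had no row, among them Wnt9b and Wnt3, which lie 24328 bases apart. Wnt10a (chromosome 1, 74791516 to 74804179) starts 6193 bases after Wnt6. Wnt9a (chromosome 11, 59306928 to 59333552) and Wnt3a are 16175 bases apart and transcribed away from each other. Wnt10b (chromosome 15, 98770712 to 98778150) and Wnt1, also divergent, are 11706 bases apart. Wnt5a (chromosome 14, 28504750 to 28527448) has no other gene of the rule within 100000 bases.

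The secretion machinery was uneven. Wls, the carrier that brings lipid-modified Wnt proteins to the cell surface, was listed at 8.63, rank 350 of the 12589 rows, and at 6.79 per kilobase. Its annotated exons together cover 8792 bases against 3559 for its longest transcript, and with all exons its per-kilobase level was 5.49. Porcn, the enzyme that attaches the lipid, was listed at 2.84 and at 1.45 per kilobase, below the lower quartile of all genes.

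**Figure D2:**
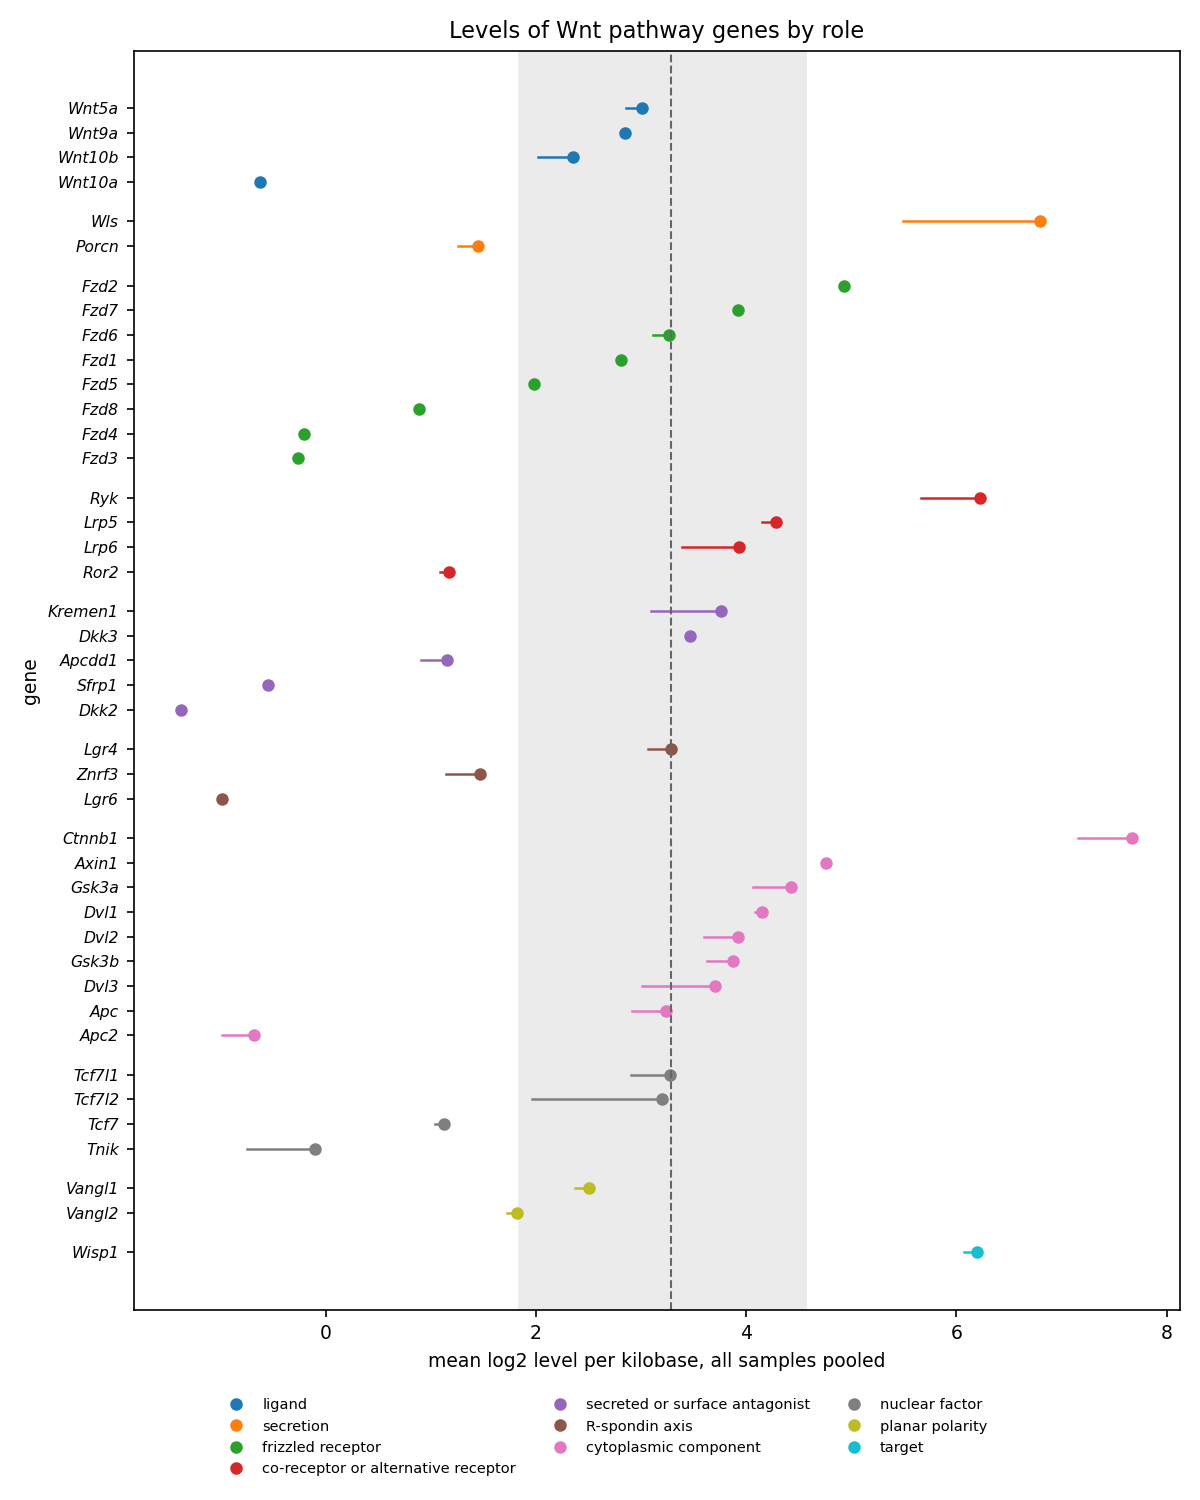
Mean log2 level per kilobase (x axis, all samples pooled) of each of the 42 genes (y axis), grouped and coloured by role; points use the longest transcript, the line of each point runs to the value with all exons, the grey band is the interquartile range of all genes from 1.84 to 4.57 and the dashed line their median of 3.28. Ctnnb1, Wls, Ryk and Wisp1 stand apart at the high end, and the ligand points lie to the left of the dashed line.

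Of 10 frizzled genes, which encode the receptors of Wnt ligands, 8 had a row, and Fzd9 and Fzd10 had none. Fzd2 was the highest at 4.94 per kilobase, at percentile 80.6 of all genes, followed by Fzd7 at 3.92. Fzd6 stood at the median of all genes with 3.27, and Fzd1 at 2.81. Fzd5 reached 1.98 and Fzd8 0.88, while Fzd4 at -0.21 and Fzd3 at -0.27 were the lowest. Fzd2 and Fzd7, which are close relatives, took 43.8% and 21.7% of the summed per-kilobase level of the 8 receptors. Fzd2 and Fzd7 led with every length used, with a share of at least 36.6% for Fzd2. The order of Fzd4 and Fzd3 turned as listed and per kilobase of coding length, where the 12734 bases of the Fzd3 transcript do not enter. Fzd5 also passed Fzd1 with coding length, by 3.96 against 3.93.

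Among the co-receptors and alternative receptors, 4 of 5 genes had a row. Ryk, a receptor for Wnt ligands with a catalytically inactive kinase domain, was the highest at 6.22 per kilobase and listed at 7.84. Lrp5 and Lrp6, the co-receptors of the canonical branch, were close to each other at 4.28 and 3.93 per kilobase, and Lrp5 was the higher with every length used, with 54.7% of their sum as listed. Ror2, a receptor kinase that binds Wnt5a, was low at 1.18 per kilobase, and Ror1 had no row.

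Of 14 antagonist genes, 5 had a row, and their levels lay far apart. Kremen1, a receptor that acts with Dkk proteins on Lrp5 and Lrp6, stood at 3.76 per kilobase and Dkk3, a Dkk family member that diverges from the others, at 3.47. Per kilobase of all exons Dkk3 was the higher of this pair, with 3.47 against 3.09. Apcdd1, a membrane-bound inhibitor, was listed at 4.60, but its transcript of 10879 bases put it at 1.15 per kilobase. Sfrp1, a soluble frizzled-related protein that binds Wnt ligands, was listed at 1.58 and at -0.55 per kilobase. Dkk2 was the lowest of the 42 genes as listed at 0.51, per kilobase of the longest transcript and with all exons. With coding length Apc2 at -0.28, Lgr6 at 0.21 and Wnt10a at 0.36 lay below Dkk2 at 0.88. No row was found for Sfrp2, Sfrp4, Sfrp5, Frzb, Wif1, Dkk1, Dkk4, Kremen2 and Notum.

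In the R-spondin axis, which controls how many frizzled receptors stay at the cell surface, 3 of 9 genes had a row. Lgr4, a receptor of R-spondins, was at the median of all genes with 3.28 per kilobase, and its relative Lgr6 at -0.99. Znrf3, a ubiquitin ligase that removes frizzled receptors, reached 1.47. The genes of the 4 R-spondins, Lgr5 and Rnf43 had no row. Znrf3 and Kremen1 lie 14765 bases apart on chromosome 11, the only listed pair of the rule within 100000 bases of each other, and differed by their per-kilobase levels of 1.47 and 3.76.

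The cytoplasmic components were the role group with the most genes above the median of all genes, 7 of the 9 with a row. Ctnnb1, which encodes β-catenin, was the highest of the 42 genes as listed at 9.53 (rank 135 of 12589), per kilobase of the longest transcript at 7.67 and with all exons, but not with coding length, where Wisp1 was higher. On the linear scale it alone held 740 of the 3428 that the 42 genes summed to. Axin1, the scaffold of the destruction complex, was at 4.76 per kilobase, and Apc at 3.24. Apc2, a relative of Apc best known from neurons, was at -0.69 and took 6.16% of the summed level of the pair. The dishevelled genes, whose proteins relay the signal from frizzled, were close to each other, with Dvl1 at 4.15, Dvl2 at 3.92 and Dvl3 at 3.70 per kilobase, and kept this order with every length used. The kinase genes Gsk3a and Gsk3b stood at 4.42 and 3.88 per kilobase, but which of them was the higher depended on the length. Gsk3b made up 40.6% of their sum per kilobase of the longest transcript, 42.6% with all exons, 71.5% as listed and 74.0% per kilobase of coding length. The Gsk3b transcript has 8303 bases, of which at most 1299 are coding in any annotated form. No row was found for Axin2, Nkd1 and Nkd2.

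**Figure D3:**
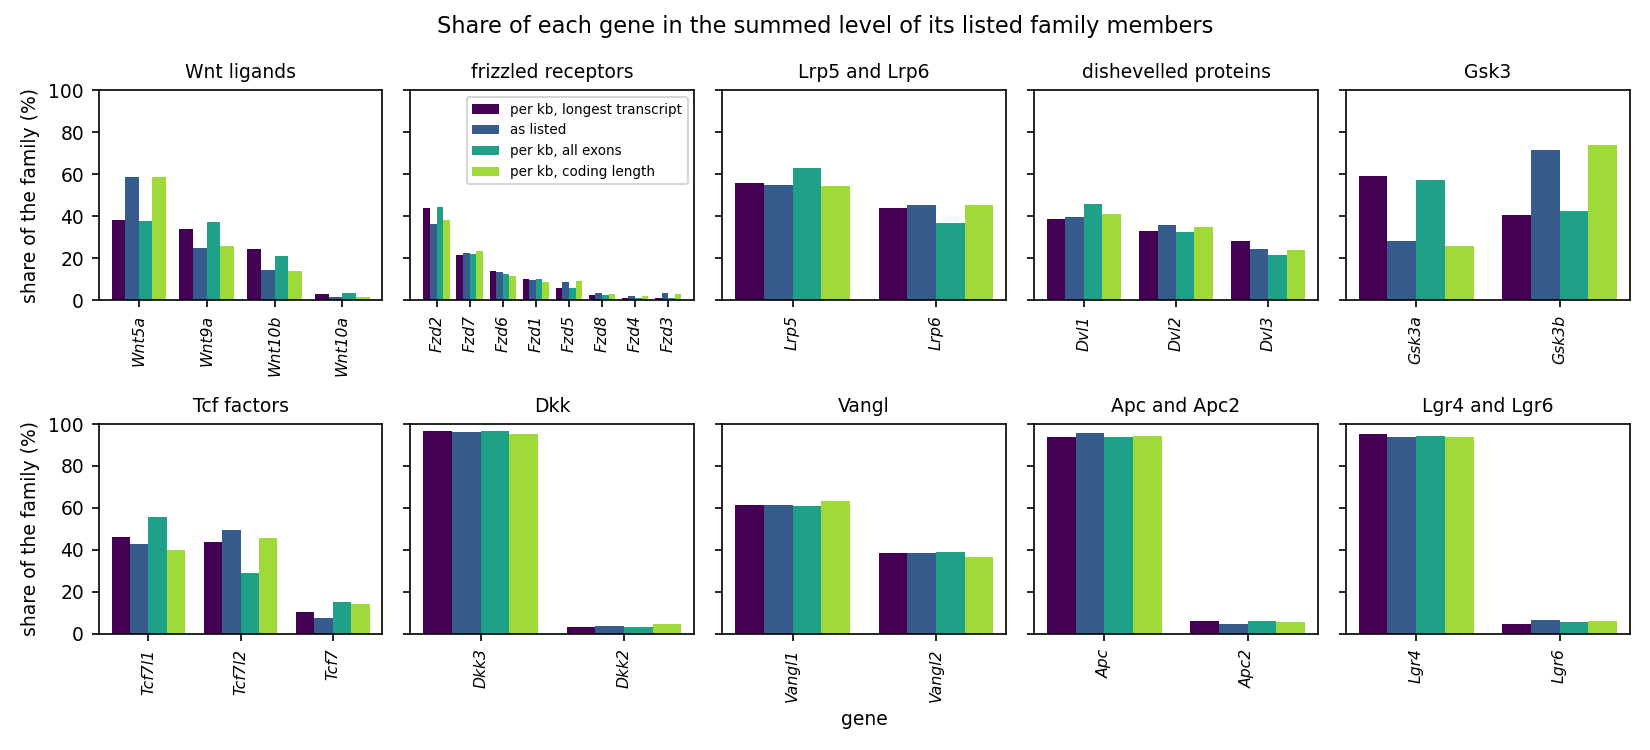
Share in percent (y axis, from 0 to 100) of each gene (x axis) in the summed linear level of the listed genes of its family, with 1 bar for each of the 4 length treatments and all samples pooled. The order within Gsk3, within the Tcf factors and among the lower frizzled receptors changes with the length treatment, while Fzd2, Dvl1, Dkk3, Apc and Lgr4 lead their families in each.

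Of the nuclear factors, Tcf7l1, mostly a repressor in the absence of a signal, and Tcf7l2 were near the median of all genes, at 3.27 and 3.20 per kilobase. Their order was not stable, since Tcf7l2 was the higher as listed (5.09 against 4.88) and Tcf7l1 the higher with all exons (2.91 against 1.96). Tcf7 was lower at 1.12, and Tnik, a kinase that acts with Tcf7l2, stood at -0.10 with a transcript of 12276 bases. Lef1 had no row. The planar polarity genes Vangl1 and Vangl2 were at 2.50 and 1.82 per kilobase, with 61.6% of their sum from Vangl1. Wisp1, now named Ccn4 in the annotation, encodes a secreted matricellular protein induced by Wnt signaling, and was the fourth highest of the 42 genes at 6.20 per kilobase of the longest transcript, listed at 8.55. It was second to Ctnnb1 with all exons, at 6.07, and with coding length it was above Ctnnb1, at 8.41 against 8.30.

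Other genes of the pathway, from lists that share no gene with the rule except where stated, had a higher median than the members in 4 of 5 lists. The list of casein kinases, phosphatase subunits and ubiquitin ligase parts that act on β-catenin, with the Axin-modifying enzymes Tnks and Tnks2 and the scaffold Amer1, named 19 genes. All 19 had a row, with a median of 5.11 per kilobase and 17 above the median of all genes. The highest were Ppp2r1a at 6.99, Skp1a at 6.54 and Csnk1a1, the casein kinase that primes β-catenin, at 6.53. The list for transcription by β-catenin mixes coactivators with corepressors and inhibitors, among them Aes, Ctbp1, the Tle genes, Ctnnbip1 and Cby1. In it 19 of 19 were listed with a median of 3.77 and 11 above the median of all genes. Aes led at 7.39, followed by Ctbp1 at 6.02 and Smarca4 at 5.75, while Pygo1 was at -1.25. The calcium list had 16 of 18 genes, a median of 3.39 and 9 above, led by Plcb3 at 4.93, Ppp3r1 at 4.88 and Camk2g at 4.81. Of 24 genes listed as surface modulators of Wnt, 17 were matched to a row, with a median of 4.12 and 12 above. This list is broad, and a direct action on Wnt was not checked for each gene, Bmp1 included. The list was led by Igfbp4 at 7.92, Sdc4 at 6.71 and Bmp1 at 5.77. Adgra2 has a row under its older symbol Gpr124, which was not matched, so these values leave it out.

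The known target genes of the pathway that had a row fell into a high and a low set. Of 18 genes, only 10 had a row, among them 4 that are also members, and those without a row belong to neither set. Ccnd1 at 7.35, Myc at 6.45, Cd44 at 6.29 and the member Wisp1 at 6.20 per kilobase lay above the upper quartile of all genes. The other 6 lay below the median of all genes, with Tbx3 at 2.25, Znrf3 at 1.47, Apcdd1 at 1.15, Tcf7 at 1.12, Wisp2 at -0.05 and Bambi at -0.42. The median of the 10 was 1.86. Genes of either set can have inputs other than Wnt, and what sets these levels was not tested.

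**Figure D4:**
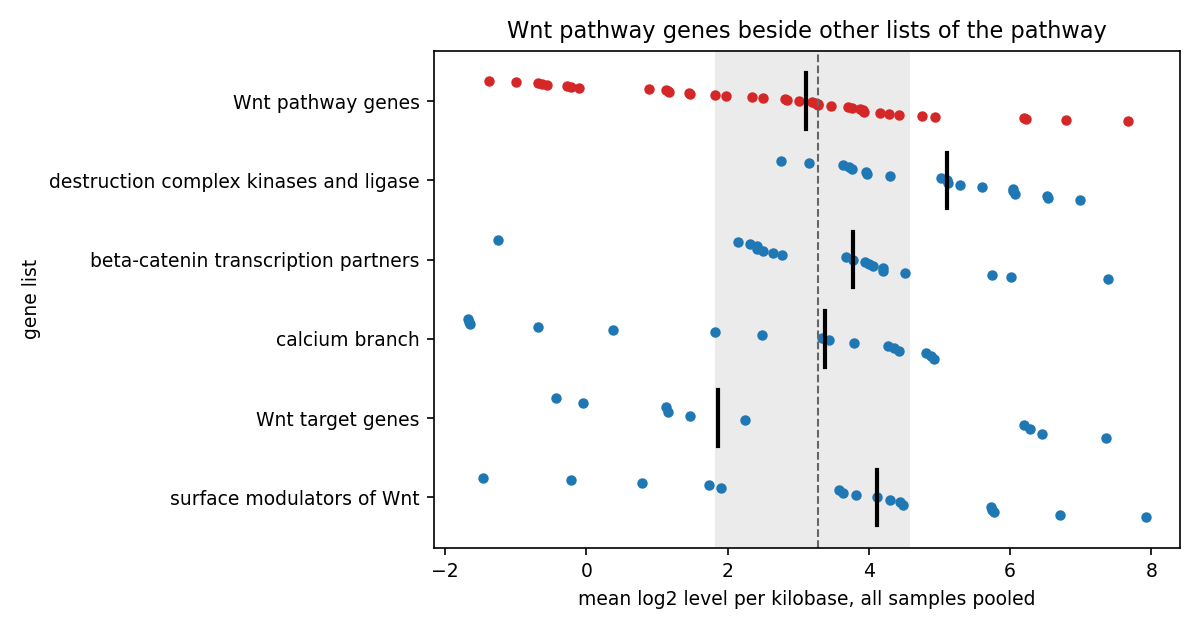
Mean log2 level per kilobase (x axis, all samples pooled) of the 42 Wnt pathway genes (red) and of 5 other lists of the pathway (blue, y axis); each point is a gene, black bars are list medians, the grey band is the interquartile range of all genes and the dashed line their median. The list of destruction complex kinases and ligase has the highest median, 5.11, and the Wnt target list the lowest, 1.86.

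Reads of overlapping genes can touch these levels. Overlaps were sought only with protein-coding genes, lincRNAs, antisense genes, processed transcripts and processed pseudogenes of unique symbol, and other gene types were not searched. By gene bounds, 12 of the 42 genes overlapped such a gene on the opposite strand. For 4 of them it was protein-coding, namely Ctnnb1 with Ulk4, Dvl1 with Tas1r3, Dvl2 with Acadvl and Apc2 with 2310011J03Rik. Tcf7 also overlapped a gene on its own strand, the lincRNA Gm26551, which strand cannot tell apart. The libraries were stranded, but whether the counting used strand is not given in the sources used here.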

How the data were processed

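RNA-seq of 8 samples of the line mSSC-YFP was deposited as 1 table, 4 samples labelled DMSO and 4 BMS493. According to the methods, the authors prepared stranded mRNA libraries, aligned single-end reads to mm10 with STAR (version 2.3.0e in the submitters' processing notes), used Rsubread to count reads with a unique alignment per Ensembl gene, and normalized with the weighted trimmed mean of M-values method. The values used are the authors' deposited mean log2 normalized expression over all samples, written with decimal commas. The filter on genes is not given in the sources used here. The other 4 columns of values hold the authors' own comparison of the treatments (log2 fold change, t, p and adjusted p) and were not used, so the planned comparison of BMS493 with DMSO was not made and no test was run.

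Symbols were matched to GENCODE M21 (GRCm38, the assembly also named mm10), 11765 exactly and 603 through 1 older RefSeq symbol, and all 42 members had a length. Length was that of the longest transcript. Alternatives were no length, all exons, coding length, a protein-coding background and filters on low levels. Every member is named. Of the other lists the 3 highest genes per kilobase are named, and further genes were chosen after their values were seen. One further list of the pathway is not reported here. Proteins, which the plan foresaw, are not shown. The members and lists were chosen with earlier results of these data known. Python 3.11.15, numpy 2.4.6, pandas 2.3.3 and matplotlib 3.10.9 were used, and the length and motif steps were tested on simulated data. The methods give only an average depth over the samples. The depth of each library is unknown, so no counting error can be given.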

Additional observations from a re-analysis of the deposited data

How the results depend on the processing

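No paired analysis was possible because the values used are means over all samples. For the same reason the block on replicate number, leaving out each culture, another normalization and filters on the values of single cultures were not run. The count of 42 listed genes was the same with older symbols and with upper and lower case ignored. The number of genes above the median of all genes was 17 per kilobase of the longest transcript and ranged from 13 to 22 under the 6 alternatives. The 13 were of only 34 genes left by a filter. As a share of the members kept, the alternatives ranged from 38.1% to 52.4%, beside 40.5% in the main setting. The number above the upper quartile was 6, and rose to 12 as listed, where no length enters. Under the other 5 alternatives it was between 5 and 7, or 14.3% to 16.7% of the members kept. The median level of the members was 3.11, and moved with the scale to 5.15 as listed, 2.85 per kilobase of all exons and 4.17 per kilobase of coding length, beside medians of all genes of 4.99, 2.85 and 4.55. With a mean log2 level of at least 1 (40 genes left) it was 3.22 beside 3.44 for all genes, and with at least 3 (34 genes left) 3.28 beside 3.79. The highest gene of each of the 10 role groups was the same in 9 groups as listed, in 9 with all exons and in 9 with coding length. The target group is among these 9 but holds only 1 listed gene, Wisp1, so its highest gene could not change. Of the 32 neighbouring pairs within role groups, 24 kept their order under all 4 length treatments. The per-kilobase level of a gene moved by a median of 1.53 between the 3 lengths, and by up to 3.06 for Apcdd1. Part of this is shared by all genes, whose median was 3.28 with the longest transcript, 2.85 with all exons and 4.55 with coding length.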

Other observations

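Cdh1 stood apart from the other epithelial markers. This gene encodes E-cadherin, which binds β-catenin at cell junctions. It was listed at 8.03 and at 5.88 per kilobase, at percentile 90.7 of all genes. The stromal marker Vcam1 was at percentile 91.5 per kilobase. The other listed epithelial markers were listed far lower, with Krt8 at 1.55, Krt14 at 0.96 and Krt18 at 0.31. No row was found for Epcam and Krt5. Cdh1 was chosen for mention after its value was seen.

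The letters TATAAA were found in 7 of the 29 member windows (24.1%), beside 6.95% of the 11414 windows of listed genes. Their first base lay at position -32 from the start in Dkk2 and at -8 in Tcf7. In Ctnnb1, Gsk3b, Ryk, Fzd1 and Tcf7l2 it lay between -242 and -117. The difference in share was not tested, and windows of 1 gene are not independent.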
